A study of Mus musculus with 4 samples.

Results

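The collagen genes are described here, taken as every array probe whose deposited gene symbol is Col, digits, a and digits. The rule took 69 of the 55681 gene probes, for 44 of 24561 symbols. L1210 is a lymphocytic leukemia line from mouse, with the strain background DBA subline 212. The lines were made with lentiviral vectors and purified on their GFP signal, and all were grown in RPMI 1640 with fetal bovine serum. L1210-control was labelled as control overexpression, and L1210-Fbxw11a, L1210-Fbxw11c and L1210-Fbxw11d each carried a splice variant of Fbxw11, an F-box protein of the SCF E3 ubiquitin ligase complex. Fbxw11a is the full-length transcript, Fbxw11c lacks exon 2, and Fbxw11d lacks that exon and the next one. Each line is a sorted stable population, here named by its variant (Fbxw11a for L1210-Fbxw11a and so on). Each was hybridised to 1 Agilent 1-colour array, so no replicate error and no test of a difference between lines was possible. The arrays were made to find expression differences between lines with and without an Fbxw11 variant, and the collagens are followed here across the 4 lines.

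Collagens are extracellular proteins of 3 chains wound into a triple helix, in which a glycine recurs at regular steps. Fibrillar collagens (types I, II, III, V and XI among them) build the fibres of bone, cartilage and skin, network collagens (types IV, VIII and X) form sheets, type VI forms beaded filaments, and fibril-associated, transmembrane and multiplexin collagens decorate fibrils, sit in membranes or lie in basement membranes. Most collagen is made by fibroblasts, osteoblasts, chondrocytes and epithelial or endothelial cells, and leukocytes are known more for their collagen receptors than for making collagen.

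The sequences upstream of the 4 collagen genes with a probe at or past 2-fold higher in any variant line against L1210-control are shown first, because the main differences of the report concern them. Each is the 250 bases before the transcription start in RefSeq (mouse build GRCm38.p6), 5′ to 3′ on the gene's strand. Capitals mark matches on either strand to the TCF/LEF motif CTTTGA, which was searched because β-catenin is a substrate of Fbxw11, to the CCAAT box (its name is its sequence), to the GC box GGGCGG, or to the TATA box written TATAAA. Col1a2 lies at chr6:4505368-4505617 on the plus strand, Col6a3 at chr1:90843972-90844221, Col6a1 at chr10:76726045-76726294 and Col5a3 at chr9:20815068-20815317, all but Col1a2 on the minus strand.
Col1a2: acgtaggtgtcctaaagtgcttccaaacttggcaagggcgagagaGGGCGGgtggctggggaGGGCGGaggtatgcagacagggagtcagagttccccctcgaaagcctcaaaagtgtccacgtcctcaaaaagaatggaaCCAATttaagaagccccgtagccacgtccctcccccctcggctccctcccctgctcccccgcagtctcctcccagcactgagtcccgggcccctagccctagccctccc
Col6a3: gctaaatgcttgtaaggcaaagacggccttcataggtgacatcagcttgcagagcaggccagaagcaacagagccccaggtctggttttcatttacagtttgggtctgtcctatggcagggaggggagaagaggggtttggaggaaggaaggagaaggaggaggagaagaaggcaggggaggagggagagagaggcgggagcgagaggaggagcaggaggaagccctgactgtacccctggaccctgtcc
Col6a1: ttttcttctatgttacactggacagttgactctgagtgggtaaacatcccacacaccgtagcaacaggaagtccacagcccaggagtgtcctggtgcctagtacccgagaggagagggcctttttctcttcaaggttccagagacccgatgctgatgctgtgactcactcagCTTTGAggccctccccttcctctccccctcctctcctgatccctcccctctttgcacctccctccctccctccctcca
Col5a3: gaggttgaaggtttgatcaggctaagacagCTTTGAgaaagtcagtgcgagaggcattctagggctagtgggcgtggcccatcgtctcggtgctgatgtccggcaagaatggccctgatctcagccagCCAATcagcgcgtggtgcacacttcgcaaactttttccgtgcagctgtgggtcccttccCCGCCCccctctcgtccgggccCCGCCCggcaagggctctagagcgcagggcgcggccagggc
The Col1a2 window held GC boxes that begin 205 and 188 bases before the start and a CCAAT box 109 bases before it. The Col6a3 window held none of the motifs, and the Col6a1 window held the TCF/LEF motif 78 bases before the start. The Col5a3 window held the TCF/LEF motif at 220 bases, the CCAAT box at 122 bases and GC boxes on the opposite strand at 63 and 41 bases before the start. The NF-κB consensus motif was in none of these 4 windows. Over all 32851 promoters of the same length, the TCF/LEF motif was in 13.8%, the CCAAT box in 33.8%, the GC box in 32.7%, the TATA box in 12.4% and the NF-κB consensus in 7.25%. Of the 38 collagen promoters in the table, for 35 genes, 9 held the TCF/LEF motif, 13 the CCAAT box, 22 the GC box, 5 the TATA box and 6 the NF-κB consensus. These are letter matches in a fixed window and say nothing of binding.

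The triple helix is visible in the DNA of the probes themselves. A glycine codon begins with GG, so a probe inside a helix-coding exon carries GG at every ninth base. That pattern ran through 2 of the 69 collagen probes (2.90%) and 7 of all 55681 probes (0.0126%). Both are printed with the GG in capitals, 5′ to 3′, because the repeat they carry is the hallmark of the family. The Col15a1 probe A_55_P2060386 lies at chr4:47283786-47283845 and the Col25a1 probe A_55_P2107711 at chr3:130270497-130270556 (mouse build mm9, the build of the deposited table).
Col15a1: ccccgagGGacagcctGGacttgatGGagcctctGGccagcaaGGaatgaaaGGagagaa
Col25a1: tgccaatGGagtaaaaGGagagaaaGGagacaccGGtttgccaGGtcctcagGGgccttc
Both were well above background on all 4 arrays. Despite the shared repeat, the longest run of bases common to collagen probes of different genes was 15 of 60, between a Col14a1 and a Col25a1 probe.

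As a check of the lines, both probes named Fbxw11 were well above background on all 4 arrays. Their log2 ratios to L1210-control were 0.31 and 0.21 in Fbxw11a, 0.27 and 0.22 in Fbxw11c, and 0.025 and 0.18 in Fbxw11d, none at 2-fold. Whether these probes lie in the sequence carried by the virus was not determined, so they do not settle the labels. The paper reports in its results that real-time RT-PCR and western blotting verified high levels of the variants in these lines. Those measurements were not analysed here. The leukocyte genes Ptprc, Lcp1 and Coro1a were well above background on all 4 arrays. Of 9 B lineage markers 4 were (Blnk, Cd79a, Pax5 and Vpreb1), and Cd79b, Ms4a1, Ebf1, Igll1 and Rag1 were on no array. Of 6 T lineage markers 4 were (Cd3e, Cd4, Cd8a and Lck), and Cd3d and Cd3g were on no array. Ptprc, Pax5, Vpreb1 and Cd8a were dim, at 42.9, 29.7, 24.1 and 33.4 in L1210-control, whose lowest detected signal was 18.1. L1210-control, Fbxw11a and Fbxw11c were arrays of 1 slide and Fbxw11d was on another, so for Fbxw11d slide and variant cannot be told apart. All 3 comparisons with L1210-control share its single array.

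Collagen probes were detected less often than probes in general. A probe counted as detected when at least 0.5 of its spots carried the scanner's flag for a signal well above background. Of the 69 collagen probes, 29 were detected in L1210-control, 34 in Fbxw11a, 35 in Fbxw11c and 37 in Fbxw11d, which is 42.0%, 49.3%, 50.7% and 53.6%. Over all probes with a gene symbol the shares were 67.2%, 70.0%, 68.8% and 72.3% in the same order. Signals are given here as multiplied to the 75th percentile of L1210-control, and on that scale the lowest detected signals were 18.1, 14.4, 14.9 and 10.4. L1210-control thus had the highest detection limit and the fewest detected probes, and Fbxw11d the lowest limit and the most.

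The same 29 probes (24 genes) were detected on all 4 arrays, 10 probes on 1 to 3 arrays, and 30 on none. None of the 10 was detected in L1210-control. For 13 genes no probe was detected on any array, namely Col5a2, Col11a1, Col24a1 and Col27a1 of the fibrillar class, Col4a3 of the basement membrane, Col10a1 of growth-plate cartilage, Col6a5 and Col6a6, the fibril-associated Col9a3 and Col12a1, the transmembrane Col13a1 and Col17a1, and Col28a1. The signals of the 30 undetected probes lay between 2.07 and 13.4. Most detected collagen signals were low, with a median of 61.3 in L1210-control, 63.0 in Fbxw11a, 57.6 in Fbxw11c and 64.0 in Fbxw11d for the 29 probes. Fewer cells that express a gene and less RNA per cell cannot be told apart in these bulk samples.

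**Figure D1:**
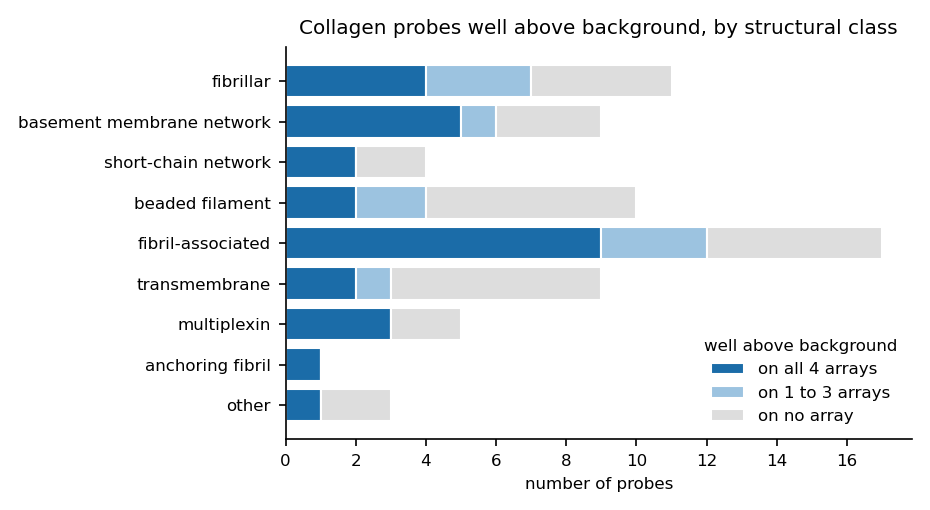
Number of collagen probes (horizontal axis) in each structural class (vertical axis), split by whether they were well above background on all 4 arrays, on 1 to 3 or on none. Every class has a detected probe, and beaded filament and transmembrane collagens have the most undetected ones, 6 each of 10 and of 9.

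The plot of detection by class shows that no class was wholly absent. Detected on all 4 arrays were 4 of 11 fibrillar probes, 5 of 9 basement membrane probes, 2 of 4 short-chain network probes, 2 of 10 beaded filament probes, 9 of 17 fibril-associated probes, 2 of 9 transmembrane probes, 3 of 5 multiplexin probes and the single probe of the anchoring fibril collagen Col7a1. The probes detected on only some arrays were 3 fibrillar, 3 fibril-associated, 2 beaded filament, 1 basement membrane and 1 transmembrane. They include Col3a1, Col5a1, Col5a3, Col6a1 and Col6a3, which are described below by class.

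Against L1210-control, 3 collagen probes were at or past 2-fold higher in Fbxw11a (Col1a2, Col6a1 and Col6a3) of 34 compared. The background over all 37675 probes compared was 5.13% in either direction, 2.71% for higher. In Fbxw11c they were 3 of 35 (Col1a2, Col5a3 and Col6a3), against a background of 4.47%, 1.69% for higher. In Fbxw11d they were 2 of 37 (Col1a2 and Col6a3), against 6.97%, 0.985% for higher. No collagen probe was at or past 2-fold lower in any variant line. With 34, 35 and 37 compared, this lies near the 2.42%, 2.78% and 5.99% of all probes that were lower. The collagen shares, all of them higher, were 8.82%, 8.57% and 5.41%. They lay above the background for higher in each line, and in Fbxw11d below that for either direction. With counts of 2 and 3, these shares rest on single probes, and after normexp correction (described with type VI below) the counts were 1, 2 and 1, or 2.94%, 5.71% and 2.70%, beside 0.690%, 0.308% and 0.115% of all probes higher. At 1.5-fold, 6, 5 and 3 collagen probes were higher in Fbxw11a, Fbxw11c and Fbxw11d (17.6%, 14.3% and 8.11%, beside 6.48%, 4.55% and 4.78% of all probes). At that threshold 1, 1 and 3 were lower (2.94%, 2.86% and 8.11%, beside 6.18%, 6.85% and 12.9%).

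Among the fibrillar collagens, Col1a2, the α2 chain of type I collagen of bone and skin, stood at 888 ± 88.9 in L1210-control (the error is the scanner software's own estimate for the spot), 2419 ± 242 in Fbxw11a, 3819 ± 382 in Fbxw11c and 3688 ± 369 in Fbxw11d. It was high in all 3 variant lines and lowest in L1210-control. The log2 ratios were 1.45, 2.10 and 2.05, or 2.72-fold, 4.30-fold and 4.15-fold. Spots of equally bright probes printed 10 times on the array give such a ratio an SD between spots of 0.09, 0.09 and 0.11, which covers the array's own noise and not variation between cultures. Fbxw11c and Fbxw11d differed by 0.05 on the log2 scale, less than any of those SDs. The probe, A_51_P182303, lies at chr6:4490619-4490678 (mm9). Each ratio was at or past 2-fold under every normalization tried.

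Col1a1 encodes the α1 chain that pairs with Col1a2 in the type I heterotrimer. Its probe stood at 44.4 in L1210-control, 45.6 in Fbxw11a, 57.6 in Fbxw11c and 61.6 in Fbxw11d. The log2 ratios were 0.04, 0.38 and 0.47, all below 2-fold, with spot SDs of 0.40 to 0.42. The ratios of the partner chains thus differed, Col1a2 being past 2-fold and Col1a1 not in each variant line.

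**Figure D2:**
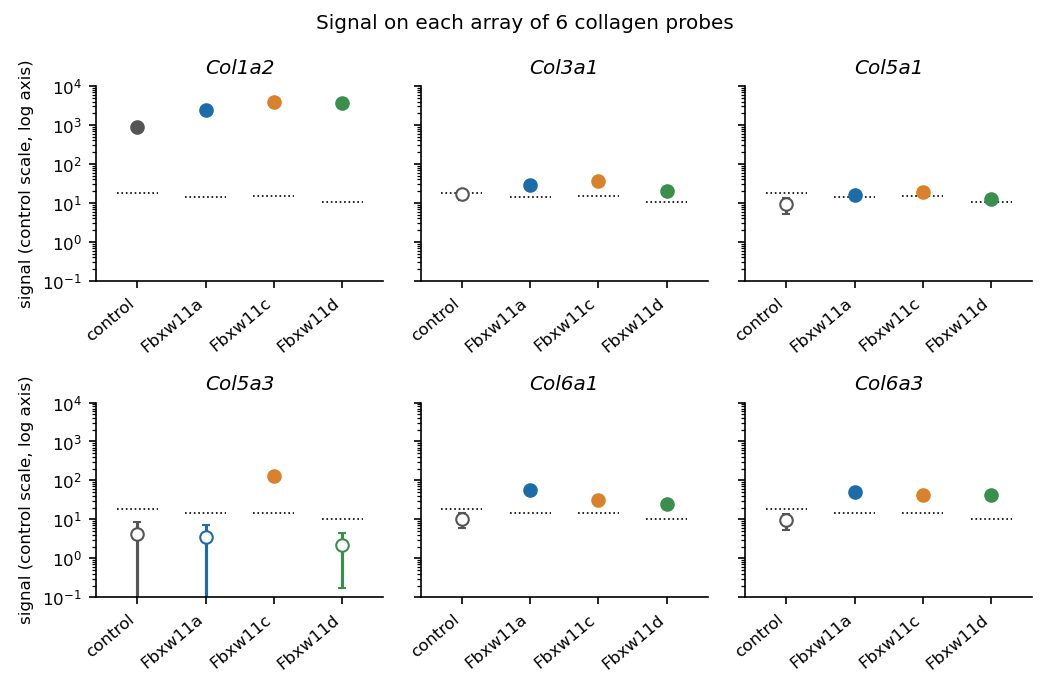
Signal on the scale of L1210-control (vertical log axis) of 6 collagen probes on each of the 4 arrays. Filled points are well above background and open points are not, bars are the scanner's error estimate (running off the axis where it reaches 0), and dotted lines mark the lowest detected signal of each array. Col1a2 is high in all 3 variant lines, Col5a3 is filled only in Fbxw11c, and Col6a1 and Col6a3 are open only in L1210-control, at 10.5 and 9.57.

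Col5a3, the α3 chain of type V collagen, a minor fibrillar collagen found within type I fibrils, had the most uneven pattern. It stood at 4.20 in L1210-control, 3.50 in Fbxw11a, 129 ± 13.3 in Fbxw11c and 2.26 in Fbxw11d, and was well above background only in Fbxw11c. The signal there was at least 7.10-fold higher than in L1210-control, at least 8.95-fold higher than in Fbxw11a and at least 12.4-fold higher than in Fbxw11d. The bounds are taken against the lowest detected signal of the other array. After normexp correction the log2 bound against L1210-control fell from 2.83 to 1.18, still past 2-fold. The probe is printed on 1 spot, A_51_P241995 at chr9:20574592-20574651 (mm9), so a single spot on a single array carries the value.

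Its partner Col5a1 stood at 9.25 in L1210-control, not well above background, and was detected at 16.2, 18.6 and 12.3 in the variant lines. These signals lie near the detection limits, and the bound for Fbxw11c was at least 1.03-fold. Col3a1, the chain of type III collagen of vessels and reticular fibres, stood at 16.6 in L1210-control, not well above background, then 29.1, 35.4 and 20.3. It was detected in the 3 variant lines, at least 1.61-fold, 1.96-fold and 1.12-fold higher, all below 2-fold. The bound in Fbxw11c, a log2 value of 0.97, was past 2-fold by quantile normalization (1.03), median centring (1.04) and the authors' values (1.03). The other partner chain Col5a2 was well above background on no array.

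Col2a1, the cartilage fibril chain, stood at 36.6, 36.2, 49.6 and 49.9 in L1210-control, Fbxw11a, Fbxw11c and Fbxw11d. Col11a2, its partner in cartilage fibrils, stood at 58.5, 55.7, 66.1 and 49.0 in that order. Neither reached 2-fold in any pair of lines.

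Type VI collagen forms beaded filaments around cells, and its classical heterotrimer holds the α1, α2 and α3 chains. Col6a1 stood at 10.5 ± 4.38 in L1210-control, not well above background, and at 55.7 ± 6.17, 31.0 ± 4.76 and 25.1 ± 3.26 in Fbxw11a, Fbxw11c and Fbxw11d. Col6a3 stood at 9.57 ± 4.13 in L1210-control, not well above background, and at 51.4 ± 6.09, 42.1 ± 5.32 and 42.6 ± 4.74. Both were detected in every variant line and not in L1210-control. The bound for Col6a1 was at least 3.08-fold in Fbxw11a, and those of 1.71-fold in Fbxw11c and 1.39-fold in Fbxw11d lay below 2-fold. Col6a3 was at least 2.84-fold, 2.33-fold and 2.36-fold higher. After normexp background correction, whose added offset of 50 shrinks the ratios of dim probes, the log2 bounds of Col6a3 were 0.51, 0.35 and 0.12, that of Col6a1 in Fbxw11a was 0.43, and neither was past 2-fold in any line.

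The α2 chain, Col6a2, was detected on all 4 arrays by probe A_51_P279639, at 79.2, 97.8, 55.7 and 64.0 in L1210-control, Fbxw11a, Fbxw11c and Fbxw11d. Its log2 ratios of 0.30, -0.51 and -0.31 were all below 2-fold, and its second probe was well above background on no array. Of the other chains, 1 Col6a4 probe was detected on all 4 arrays, between 23.2 and 33.5, and the other Col6a4 probe and the Col6a5 and Col6a6 probes on none.

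The 3 nearest genes with a probe on either side of Col1a2, Col5a3, Col6a1 and Col6a3 in RefSeq order are 24 in all, of which 4 were well above background on no array and gave no ratio. Of the 20 compared, 0 were at or past 2-fold in any variant line, where 5.13%, 4.47% and 6.97% of all probes were in Fbxw11a, Fbxw11c and Fbxw11d, so that 0 of 20 lies near the background. The log2 ratio farthest from 0 among them was 0.89 in size beside Col1a2, 0.80 beside Col5a3, 0.94 beside Col6a1 and 0.78 beside Col6a3.

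Type IV collagen is the sheet-forming collagen of basement membranes, and its chains are encoded in head-to-head pairs. Col4a1, of the pair Col4a1 and Col4a2, was the only collagen printed on 10 spots. Its mean signal was 7.55 ± 2.59 (SD, 10 spots) in L1210-control, 6.30 ± 3.50 in Fbxw11a, 9.60 ± 2.82 (9 spots, 1 flagged as an outlier) in Fbxw11c and 14.2 ± 3.69 in Fbxw11d. The spots overlapped between the lines, and 9 of 10 were well above background in Fbxw11d and 0 in the other lines. Since the detection limit was lowest on that array, no fold change against L1210-control is given.

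Col4a2 stood at 44.0, 46.7, 56.0 and 53.0 in the 4 lines, all detected. Col4a5, an X-linked chain of kidney basement membrane, stood at 89.9, 106, 115 and 83.8. Its neighbour Col4a6 stood at 361, 287, 273 and 378, with log2 ratios of -0.33, -0.40 and 0.07. None of these probes reached 2-fold between any lines, and the ratio of Col4a6 in Fbxw11d was -0.03 after normexp correction. Of Col4a4, whose partner Col4a3 was not detected, probes at 54.8, 44.6, 52.7 and 58.2 and at 28.3, 24.5, 19.6 and 35.6 were detected on all 4 arrays, and the remaining probe on none. The dimmer of these was past 2-fold higher in Fbxw11d than in Fbxw11c by median centring only, a log2 difference of 1.01 against 0.86.

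The short-chain network collagen Col8a1, made by endothelial and smooth muscle cells, stood at 1664 ± 166, 1122 ± 112, 1091 ± 109 and 1142 ± 114 in L1210-control, Fbxw11a, Fbxw11c and Fbxw11d. It was highest in L1210-control and nearly level in the 3 variant lines. The log2 ratios of -0.57, -0.61 and -0.54, with spot SDs of 0.09, 0.09 and 0.11, were below 2-fold and kept their sign under every normalization tried. Its partner Col8a2 went the other way, at 51.5, 62.6, 61.7 and 85.5, with log2 ratios of 0.28, 0.26 and 0.73 and spot SDs of 0.38 to 0.40. Col7a1, the chain of the anchoring fibrils that tie epidermis to dermis, stood at 1327, 1444, 1143 and 974, a log2 ratio of 0.12 in Fbxw11a, -0.22 in Fbxw11c and -0.45 in Fbxw11d.

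**Figure D3:**
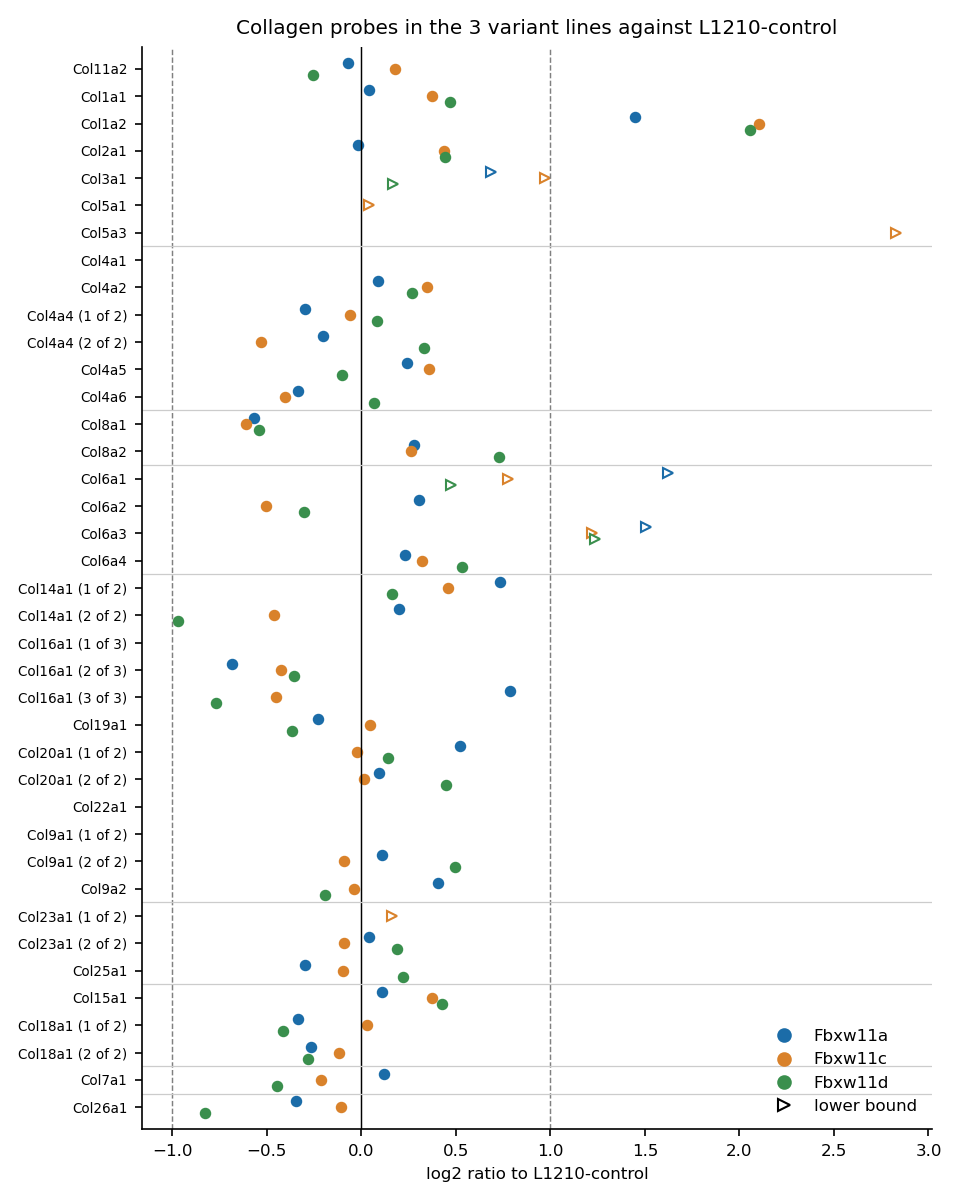
Log2 ratio to L1210-control (horizontal axis) of the 39 collagen probes well above background on at least 1 array (vertical axis, by class, probes of a gene numbered by their identifiers). Filled points are measured on both arrays, open triangles are lower bounds, dashed lines mark 2-fold, and a line without points had no ratio or bound. Only Col1a2 has filled points past 2-fold, and the triangles past it are Col5a3, Col6a1 and Col6a3.

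Fibril-associated collagens lie on the surface of larger fibrils. Col16a1 probe A_55_P2124751 stood at 75.5 ± 8.50 in L1210-control, 130.4 ± 13.4 in Fbxw11a, 55.3 ± 6.42 in Fbxw11c and 44.4 ± 4.90 in Fbxw11d. It was highest in Fbxw11a and below L1210-control in the other variant lines. Fbxw11c was 2.36-fold and Fbxw11d 2.94-fold lower than Fbxw11a. After normexp correction the log2 differences were -0.71, below 2-fold, and -1.10. The brighter Col16a1 probe A_55_P2056739 stood at 917, 571, 683 and 717, with the opposite sign in Fbxw11a, a log2 ratio of -0.68 against 0.79 for the first. Another Col16a1 probe was detected only in Fbxw11d and the remaining one on no array.

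Col14a1, a collagen of tendon and skin, was read by 2 detected probes. A_55_P2159522 stood at 64.7 ± 7.50, 74.2 ± 8.00, 46.9 ± 5.69 and 33.0 ± 3.90 in L1210-control, Fbxw11a, Fbxw11c and Fbxw11d, and was 2.25-fold lower in Fbxw11d than in Fbxw11a. A_55_P2124736 stood at 24.4, 40.5, 33.5 and 27.3, and was 1.49-fold lower in that pair. The log2 difference of A_55_P2159522 in that pair, -1.17, was -0.83 after normexp correction and -0.96 by the authors' values, and below 2-fold also by quantile normalization and median centring. The probes differed in sign against L1210-control in Fbxw11c and Fbxw11d.

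Of the other collagens of this class, Col9a1 stood at 93.1, 100.3, 87.5 and 131 by its brighter probe, and Col9a2 at 104, 138, 101 and 90.8 in the 4 lines. Both are chains of cartilage type IX collagen, whose Col9a3 was not detected. Both probes of Col20a1 and 1 of Col19a1 were detected on all 4 arrays, and Col22a1 only in Fbxw11d, at 15.1. None of these reached 2-fold between any lines.

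The multiplexin Col18a1, the basement membrane collagen from which endostatin is cut, stood at 486, 404, 447 and 399.9 by 1 probe and at 186, 148, 191 and 140.1 by the other. Col15a1, the other multiplexin, stood at 20.7, 22.3, 26.8 and 27.8 by the repeat-bearing probe printed above, and 2 further probes that share 48 of 60 bases with each other were not well above background. The transmembrane Col25a1, known from amyloid plaques, stood at 59.99, 48.9, 56.1 and 70.0 by its repeat-bearing probe, with 3 other probes undetected. Col23a1 stood at 61.3, 63.0, 57.6 and 70.0 by its brighter probe. Col26a1, an unclassed collagen, stood at 25.4, 19.96, 23.5 and 14.3, although a probe that shares 55 of its 60 bases was well above background on no array. None reached 2-fold between any lines.

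Between variant lines, 2 of 36 collagen probes differed by 2-fold or more between Fbxw11c and Fbxw11a (Col5a3 higher and Col16a1 lower in Fbxw11c), against a background of 4.92% (1.78% higher and 3.14% lower). Fbxw11d was lower than Fbxw11a for 3 of 38 (Col6a1, 2.22-fold, Col14a1 and Col16a1), against 7.34% (1.05% higher and 6.29% lower). The count of 3 was 1, Col16a1, under normexp correction, quantile normalization, median centring and the authors' values, where the log2 difference of Col6a1 was -0.63 to -0.93. That is 2.63% of the collagen probes, beside 2.85%, 6.57%, 6.47% and 6.46% of all probes under those settings. Fbxw11d was lower than Fbxw11c for 1 of 38 (Col5a3), against 5.26% (0.875% higher and 4.38% lower). The corresponding collagen shares were 5.56%, 7.89% and 2.63%. They lay within 3 percentage points of the background in each pair.

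Taken over the 29 probes measured on all 4 arrays, the typical collagen lay near its level in L1210-control. The median log2 ratio to L1210-control was 0.086 in Fbxw11a, -0.040 in Fbxw11c and 0.085 in Fbxw11d, beside -0.011, -0.0031 and -0.0072 over all probes. The median in Fbxw11c was above 0 by quantile normalization, median centring and the authors' values, and that in Fbxw11d was -0.20 after normexp correction and 0.30 by the authors' values. Against L1210-control, 8 of the 29 were higher in all 3 variant lines and 4 lower, which is 27.6% and 13.8%, where 23.5% and 24.7% of all probes were. After normexp correction the counts were 2 higher and 8 lower, or 6.90% and 27.6%, beside 6614 and 9540 of all 33071 probes. Signals spanned less than 1 log2 unit over the 4 arrays for 26 of the 29 (89.7%, beside 89.9% of all probes), the exceptions being Col1a2 and the Col16a1 and Col14a1 probes that differed between variant lines.

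**Figure D4:**
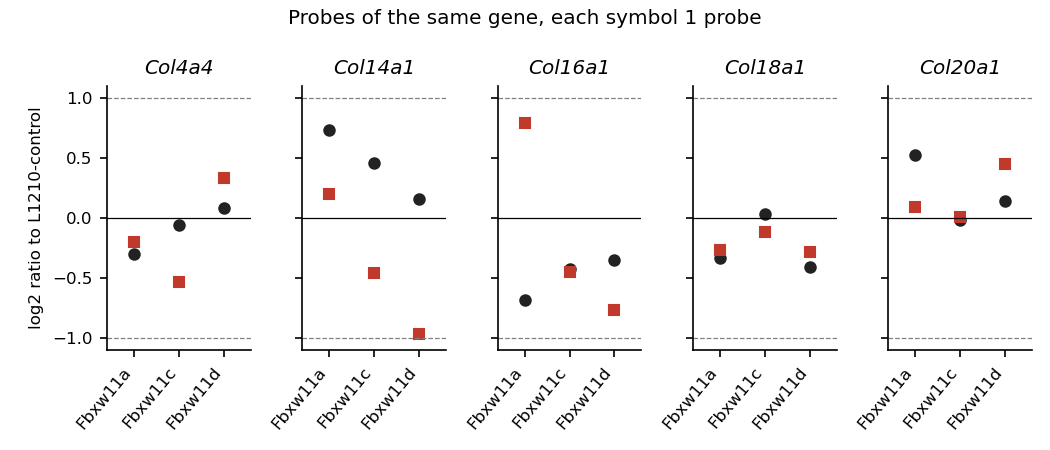
Log2 ratio to L1210-control (vertical axis) in the 3 variant lines (horizontal axis) for the 5 collagen genes with more than 1 probe well above background on all 4 arrays, each symbol 1 probe. The symbols of Col16a1 lie on opposite sides of 0 in Fbxw11a and those of Col14a1 in Fbxw11c and Fbxw11d, whereas those of Col18a1 lie close together.

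How far 1 probe stands for a gene can be read from genes with several probes, as in the plot of probes of the same gene. Of 18 such collagen genes, 11 had a probe detected on all 4 arrays and another on none. In the 5 genes with at least a pair of probes on all 4 arrays (Col4a4, Col14a1, Col16a1, Col18a1 and Col20a1), the probes had the same sign in 10 of 15 pairs of gene and line, and differed by more than 1 on the log2 scale in 2. Col1a2, Col5a3, Col6a1 and Col6a3 each had a single probe, so no second probe bears on their values. The median GC content of the probes was 45.0% for those detected on all 4 arrays and 37.5% for those detected on none.

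Collagen chains need hydroxylation, chaperones and trimming before they form fibres, and genes for these steps were measured as a list of 30. Of them 22, 24, 23 and 24 were well above background in L1210-control, Fbxw11a, Fbxw11c and Fbxw11d, and 4 on no array. Of the 24, 23 and 24 compared with L1210-control in Fbxw11a, Fbxw11c and Fbxw11d, 0 were at or past 2-fold, near the 5.13%, 4.47% and 6.97% of all probes, and the median log2 ratios were 0.015, -0.0047 and 0.13. The prolyl 4-hydroxylase subunit P4ha2 stood at 4801, 4676, 4819 and 4836, and the lysyl hydroxylase Plod3 at 2968, 3080, 3140 and 3531. The procollagen C-proteinase enhancer Pcolce stood at 44861, 62259, 51471 and 57058. P4hb, Crtap and Ppib were also detected on all 4 arrays. Serpinh1, the collagen chaperone Hsp47, and Lox, the crosslinking lysyl oxidase, were well above background on no array.

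Of 10 collagen receptor genes, 8, 7, 9 and 9 were detected on the 4 arrays, among them the integrin chain Itgb1, the discoidin domain receptors Ddr1 and Ddr2 and the inhibitory leukocyte receptor Lair1. Itga11, an integrin chain for fibrillar collagen, stood at 32.4 in L1210-control, 10.9 in Fbxw11a (not well above background), 24.4 in Fbxw11c and 13.0 in Fbxw11d. It was at least 2.26-fold lower in Fbxw11a and 2.50-fold lower in Fbxw11d, and neither was past 2-fold after normexp correction. It was the 1 gene past 2-fold of 8 receptors compared in Fbxw11a and of 9 in Fbxw11d, and 0 of 9 were in Fbxw11c, beside the same shares of all probes (5.13%, 6.97% and 4.47%). Of 8 proteases that degrade collagen, 6 were detected on no array. Ctsk was detected only in Fbxw11a, at 16.5, and Mmp8 only in Fbxw11d, at 11.6. Both signals lay below the lowest detected signal of L1210-control, 18.1, so no fold change is given.

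Markers of cells that make collagen were measured beside these values. Of 12 fibroblast markers, 5, 6, 5 and 6 were detected in L1210-control, Fbxw11a, Fbxw11c and Fbxw11d, and 5 on no array. Pdgfrb, Fap, Mmp2, Postn and Thy1 were the undetected ones, whereas Fn1 (fibronectin), Dcn and Pdgfra were detected on all 4 arrays. Of the 6, 5 and 6 that could be compared with L1210-control, 0 were at or past 2-fold, near the 5.13%, 4.47% and 6.97% of all probes. The median log2 ratio of the 5 measured on all arrays was -0.022 in Fbxw11a, 0.019 in Fbxw11c and -0.19 in Fbxw11d. Sparc, a collagen-binding matrix protein, had log2 ratios of 0.74, 0.85 and 0.61, the growth factor receptor chain Pdgfra -0.02, -0.55 and -0.70, and the proteoglycan Dcn -0.29, -0.53 and 0.33. The summed signal of the list, most of it Sparc and Fn1, was 114938, 168654, 181328 and 153673. Of 8 osteoblast and cartilage markers 5, 5, 5 and 7 were detected. The summed signals of the list were 2395, 2925, 1860 and 2265, of which Acan held 2093, 2582, 1556 and 1928. Bglap (osteocalcin) was 3.10-fold higher in Fbxw11a alone, at 27.8, 86.2, 22.9 and 22.3, though below 2-fold after normexp correction. It was the 1 gene past 2-fold of 5 compared in Fbxw11a, beside 5.13% of all probes. In Fbxw11c 0 of 5 and in Fbxw11d 0 of 7 were, beside 4.47% and 6.97%. Of 4 endothelial markers 2, 3, 2 and 3 were detected. The summed signals of the list were 6160, 6054, 5689 and 4984, of which Kdr held 5997, 5917, 5540 and 4861. Of the 3, 2 and 3 compared with L1210-control, 0 were at or past 2-fold, beside the same shares of all probes. The part of these cell types in the Col1a2, Col6a1 and Col6a3 values was not tested.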

How the data were processed

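Total RNA of the 4 L1210 lines was labelled with Cy3 and hybridised to Agilent mouse 8x60K arrays, 1 per line. The authors deposited the scanner output of each array, with a background-corrected signal intensity per spot and flags for outliers and for signal well above background, and 1 table with these intensities, log2 values they normalized and probe annotation. Per the file headers the software was Agilent Feature Extraction 10.7.1.1, and 9.1 per the submitters' processing notes. The method behind the deposited log2 values is not given in the sources used here.

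Control spots and outlier-flagged spots were left out. The log2 processed signal of each gene spot was taken minus its array's 75th percentile (620.2, 627, 672 and 954 in raw intensity for L1210-control and the Fbxw11a, Fbxw11c and Fbxw11d lines), and a probe's spots were then averaged. A pair of arrays was compared at 2-fold over probes detected on either. Where 1 array was not well above background, the fold is a bound: the brighter signal over the higher of the dimmer probe's own signal and the lowest signal among probes with all spots detected on that array. The number of arrays limits the precision. No gene spot was saturated.

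Probes were named by the deposited symbols, and 7 of the 69 carry another name in the scanner output. For the gene lists, the probe of highest mean signal stood for a gene. Named with all signals were collagen probes past 2-fold between any pair of arrays, the 6 brightest and partner chains, and others were chosen after their values were seen. The structural classes and the lists of processing, receptor, protease and marker genes were written from general knowledge. These lists and the collagen members were chosen with earlier results of these data known. A planned marker gene is not reported here. Alternatives were normexp correction (limma 3.58.1 in R 4.3.3, offset 50), quantile normalization, median centring, the deposited log2 values, other filters on dim probes, outlier spots kept, and thresholds of 1.5-fold and 3-fold. Simulated data were used to test the calls. Spot noise came from 399 probes printed on 10 spots, over the 51 nearest in brightness. Promoters and gene order are from RefSeq, GRCm38.p6, probe coordinates from the deposited table, mm9. Coordinates of the 2 builds were not mixed.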

Additional observations from a re-analysis of the deposited data

Results flagged for a closer look

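The probe A_55_P2124751 of Col16a1 moved in opposite directions from L1210-control in different variant lines. Its log2 ratio was 0.79 in Fbxw11a, -0.45 in Fbxw11c and -0.77 in Fbxw11d, so that Fbxw11c was -1.24 and Fbxw11d -1.55 from Fbxw11a. Spots of equally bright probes give these differences an SD of 0.34 each, and the ratios to L1210-control SDs of 0.26, 0.38 and 0.38. After normexp correction the difference in Fbxw11c was -0.71, below 2-fold, and that in Fbxw11d was -1.10. The probe A_55_P2159522 of Col14a1 stood at 0.20 in Fbxw11a and -0.97 in Fbxw11d, a difference of -1.17, with an SD between spots of 0.44. That difference was below 2-fold after normexp correction (-0.83), by quantile normalization (-0.95), median centring (-0.95) and the authors' values (-0.96). With 1 array per line these differences were not tested, and all 3 share the Fbxw11a array. The brighter Col16a1 probe A_55_P2056739 had the opposite direction, with log2 differences of 0.26 in Fbxw11c and 0.33 in Fbxw11d against Fbxw11a, and the Col14a1 probe A_55_P2124736 was at -0.57 on the log2 scale in Fbxw11d against Fbxw11a.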

How the results depend on the processing

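The counts of collagen probes at or past 2-fold against L1210-control were 3 in Fbxw11a, 3 in Fbxw11c and 2 in Fbxw11d, and between variants 2 for Fbxw11c against Fbxw11a, 3 for Fbxw11d against Fbxw11a and 1 for Fbxw11d against Fbxw11c. With normexp correction they were 1 in Fbxw11a and 1 in Fbxw11d (all probes 1.38% and 2.81%). They were 1 for Fbxw11c against Fbxw11a and 1 for Fbxw11d against Fbxw11a (all probes 1.19% and 2.85%). The count for Fbxw11d against Fbxw11a was also 1 by quantile normalization, by the authors' values and by median centring (all probes 6.57%, 6.46% and 6.47%). By median centring the count for Fbxw11d against Fbxw11c was 2 (all probes 4.94%). Without a filter on dim probes the counts, in the order first given, were 8, 12, 13, 7, 7 and 4, and 9.16%, 8.42%, 13.1%, 9.57%, 12.5% and 10.3% of all probes passed. Of the counts against L1210-control, 2, 3 and 7 were lower, beside 4.05%, 4.70% and 9.88% of all probes. With both arrays required above background the counts were 1, 1 and 1 against L1210-control (all probes 2.89%, 2.49% and 5.48%). They were 1 for Fbxw11c against Fbxw11a and 0 for Fbxw11d against Fbxw11c (all probes 2.71% and 3.91%). At 1.5-fold the counts were 7, 6, 6, 6, 6 and 6 (all probes 12.7%, 11.4%, 17.7%, 12.6%, 19.1% and 15.7%). At 3-fold they were 1 in Fbxw11a and 1 in Fbxw11d (all probes 2.35% and 2.36%). They were 1 for Fbxw11c against Fbxw11a and 0 for Fbxw11d against Fbxw11a at 3-fold (all probes 2.05% and 2.55%). Other counts stayed within 1.5 times. No ratio of a named probe past 2-fold changed sign. With the mean over all probes of a named gene in place of its brightest, 5 ratios moved by more than the spread between spots and 7 did not. Median centring moved the median of all probes in Fbxw11d by 0.22. The numbers detected did not depend on the scaling, and with every spot required above background Fbxw11d had 36 detected collagen probes. Signal over background limited most collagens: raw signals were under 100 for 20, 17, 19 and 15 of the 29 probes on the 4 arrays. Spots of the dimmest repeated probes (lowest quartile) had a log2 SD of 0.21 to 0.62. No paired analysis was possible because each line had 1 array, which also leaves no array to leave out.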
